A study of Mus musculus with 12 samples.

Results

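Microglia are the resident macrophages of the brain, and their resting, tissue-adapted state is called homeostatic. Followed here across the dorsal hippocampus of 7-day-old mice were 9 genes grouped as homeostatic microglia genes, several of them shared with other cells: Cx3cr1, Csf1r, P2ry12, Trem2, Tyrobp, Itgam, Tmem119, Siglech and Aif1. They were chosen by name from the 52634 genes of the count table, by a rule that uses no measured value though earlier results of these data were known, and each symbol matched 1 gene. All 9 were among the 17631 genes that passed the filter on low counts. None of them differed between SERTPyramid and SERTfl/fl hippocampus in a test adjusted over all genes, and their summed level was 150.0 to 155.8 CPM (a share of the library total, scaled so that each library sums to the same value) in the 6 SERTPyramid libraries, against 141.0 to 163.0 CPM in the 6 SERTfl/fl libraries. Most of this sum comes from Csf1r and Cx3cr1, with means of 67.35 and 35.36 CPM, so it says little about the lower genes.

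SERTPyramid and SERTfl/fl are the 2 genotypes of the study. SERTfl/fl mice carry floxed alleles of Slc6a4, which encodes SERT, the serotonin transporter, and SERTPyramid mice lose that transporter in pyramidal neurons, which the series' title places in hippocampal field CA3. What drives the deletion was not given in the sources used here. Whole dorsal hippocampus was taken at postnatal day 7, and each library was made from tissue pooled from 4 mice. The 12 libraries form 4 groups of 3: SERTPyramid labelled female, SERTfl/fl labelled female, SERTPyramid labelled male and SERTfl/fl labelled male. No source says that pools come from separate litters, and p-values then reflect only library-to-library spread, which may be technical in part.

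Microglia enter the brain before birth from the yolk sac and need signals through the receptor CSF1R to survive. Neurons speak to them through CX3CL1, the ligand of CX3CR1, and through released nucleotides, which P2RY12 senses. In the developing brain they take up synaptic material, partly through complement receptor 3, whose alpha chain is encoded by Itgam, and through TREM2, which signals with the adaptor DAP12 encoded by Tyrobp.

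Library totals ran from 18747249 to 25522347 counts. A count of 0 allows up to 3 counts, or 0.118 to 0.160 CPM, as far as counting error goes. The targeted gene Slc6a4 had 1 to 12 counts in SERTPyramid and 0 to 17 in SERTfl/fl libraries, and these ranges overlap. Sex-linked transcripts contradicted the label in 10 of 12 libraries, all but replicate 1 of SERTfl/fl under both labels. Female and male below are therefore the labels' words. Under each label the 3 SERTPyramid libraries shared 1 sex-linked pattern, while the 3 SERTfl/fl libraries were mixed. Genotype and sex are thus partly confounded within a label. Replicate 3 of SERTfl/fl labelled female had 2849 Y-linked counts and 527 of Xist, a transcript of female cells. The other libraries high in Y-linked counts had 13 to 59 Xist counts, and whether that pool was mixed was not tested. In tissue RNA, fewer microglia and less RNA per microglial cell cannot be told apart.

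The promoter sequences of the genes with the smallest p-values in the comparisons that follow are shown first. PU.1, encoded by Spi1, is the lineage transcription factor of macrophages, and GAGGAA is the core of the site it binds. The 250 bases upstream of each gene start were taken from RefSeq (GRCm38.p6), where 6 of the 9 genes were matched. On either strand GAGGAA, or TTCCTC when read from the other strand, stood in 3 of these 6 windows, those of Trem2, Aif1 and Itgam, and in 7639 of all 32851 windows of the same length (23.3%). Each sequence below runs 5' to 3' on the strand of its gene, with GAGGAA or TTCCTC in capitals.
Trem2, plus strand, chr17:48346151-48346400: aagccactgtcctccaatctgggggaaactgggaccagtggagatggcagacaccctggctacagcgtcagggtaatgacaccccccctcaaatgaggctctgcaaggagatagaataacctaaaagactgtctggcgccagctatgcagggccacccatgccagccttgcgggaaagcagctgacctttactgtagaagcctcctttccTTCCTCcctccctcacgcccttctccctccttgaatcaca
Itgam, plus strand, chr7:128062390-128062639: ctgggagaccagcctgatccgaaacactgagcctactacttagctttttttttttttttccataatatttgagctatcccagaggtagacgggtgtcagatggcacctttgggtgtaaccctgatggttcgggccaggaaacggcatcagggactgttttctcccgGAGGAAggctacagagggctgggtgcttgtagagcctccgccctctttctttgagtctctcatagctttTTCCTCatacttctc
P2ry12, minus strand, chr3:59262986-59263235: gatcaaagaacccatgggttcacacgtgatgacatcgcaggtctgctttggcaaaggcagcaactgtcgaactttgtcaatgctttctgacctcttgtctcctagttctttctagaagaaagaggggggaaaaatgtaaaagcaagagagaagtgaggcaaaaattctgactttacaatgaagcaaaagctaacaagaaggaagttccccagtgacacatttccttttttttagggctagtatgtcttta
The Trem2 window holds the motif once, 40 bases before the gene start. The Itgam window holds it at 84 and at 15 bases before the start, and the P2ry12 window does not hold these letters. A match describes the letters and not binding.

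The question put to the members was whether microglial transcripts differ when pyramidal neurons lose SERT. Averaged over the labelled sexes, 0 of the 9 members passed an adjusted p of 0.05 in edgeR's quasi-likelihood test, in which 0 of 17631 genes passed (0%). DESeq2 and limma voom also called 0 genes, and edgeR gave 1145 genes an unadjusted p under 0.05 (6.49%), of which 1 was a member, Trem2, among the 3.94% that were also higher in SERTPyramid. The log2 fold change of SERTPyramid over SERTfl/fl was above 0 for 6 of 9 members, with a median of 0.085, against 49.3% of all tested genes and a median of -0.0012. Of the 9 intervals (95%) of the fold change, the lowest bound was 0.862-fold, for Aif1, and the highest 1.345-fold, for Itgam. CPM ranges overlapped between the genotypes for all 9 members, while they did not overlap for 46 tested genes (0.261%; SERTPyramid above in 0.187% and below in 0.0737%).

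**Figure D1:**
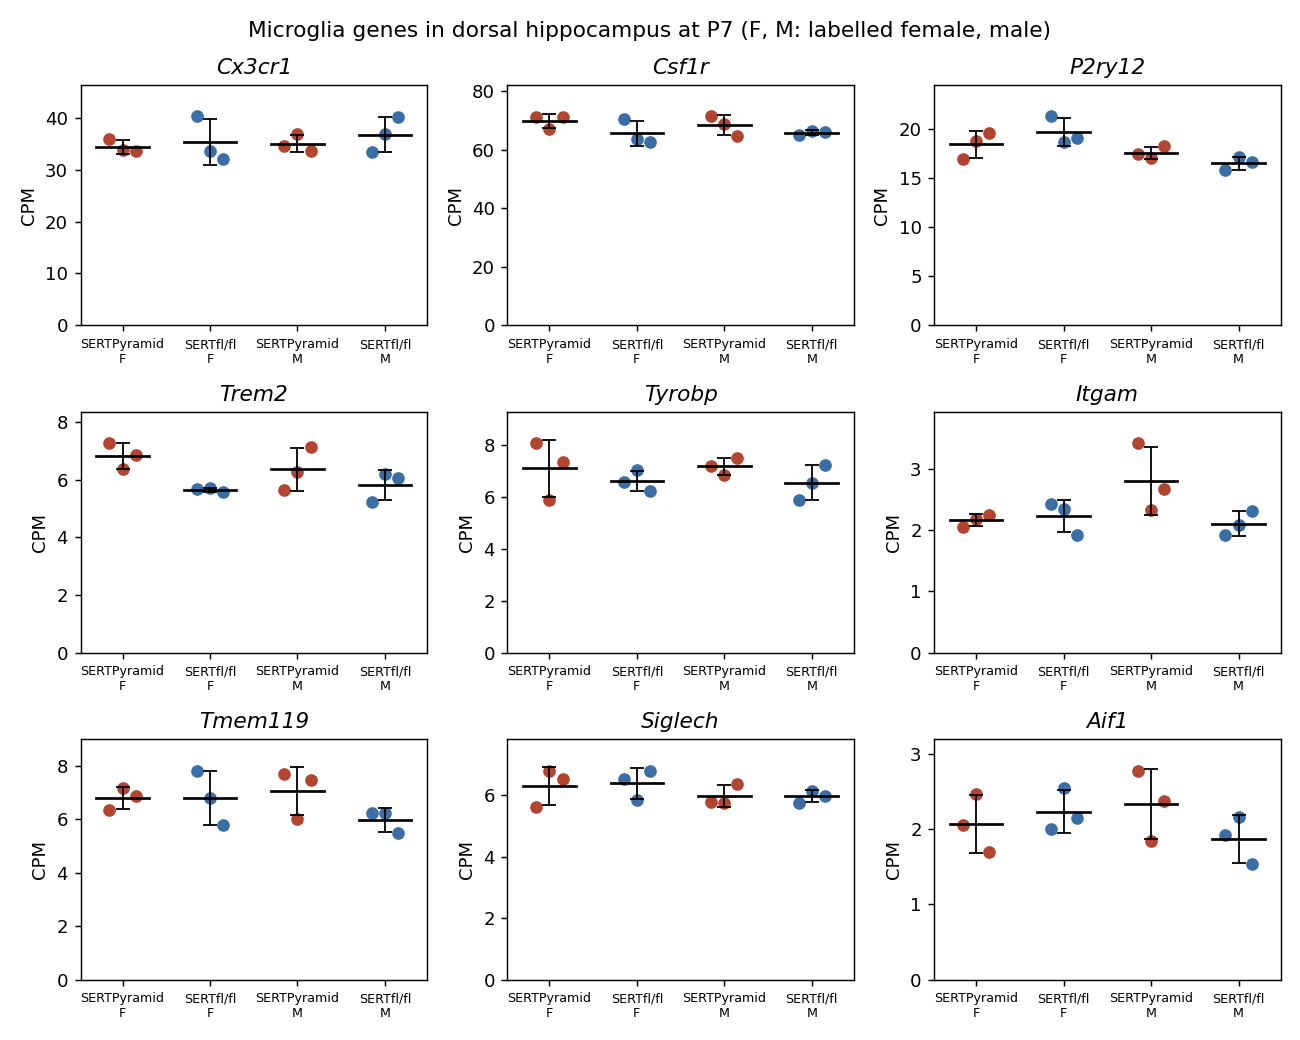
CPM of each of the 9 genes (vertical axes, each from 0) in 12 libraries, by group: SERTPyramid (red) and SERTfl/fl (blue), labelled female (F) and male (M). Each point is 1 library, lines are means and bars are SD (n = 3). Points of both genotypes lie at similar heights for every gene, and only Trem2 in labelled-female and Itgam in labelled-male libraries show ranges that do not overlap.

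Cx3cr1, the receptor of the neuronal chemokine CX3CL1 (ENSMUSG00000052336, chromosome 9, 119901616 to 120069879, minus strand, GRCm38), is widely used to mark microglia. It had 35.8, 33.7 and 33.5 CPM in SERTPyramid and 40.3, 33.6 and 32.1 CPM in SERTfl/fl libraries labelled female. Among libraries labelled male it had 34.5, 36.9 and 33.6 CPM in SERTPyramid and 33.4, 36.8 and 40.0 CPM in SERTfl/fl. The SERTPyramid values lay inside the SERTfl/fl range under both labels, and the 2 highest values of all were SERTfl/fl libraries, one of each label. The means were 34.7 ± 1.40 CPM in SERTPyramid and 36.0 ± 3.55 CPM in SERTfl/fl (SD, n = 6), and the log2 fold change came to -0.07 ± 0.06 (SE), at an edgeR adjusted p = 0.819.

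Csf1r, the receptor of the growth factors CSF1 and IL-34 (ENSMUSG00000024621, chromosome 18, 61100598 to 61132149, plus strand), had the most counts of the 9 genes, 1217 to 1802 per library. SERTPyramid libraries labelled female had 71.1, 67.0 and 71.2 CPM, against 70.5, 63.8 and 62.4 CPM in SERTfl/fl. SERTPyramid libraries labelled male had 71.3, 68.8 and 64.7 CPM, against 64.9, 66.5 and 65.9 CPM in SERTfl/fl. Under both labels the highest library was a SERTPyramid one and the ranges overlapped. The means were 69.0 ± 2.72 CPM in SERTPyramid and 65.7 ± 2.78 CPM in SERTfl/fl (SD, n = 6). The log2 fold change was 0.06 ± 0.04 (SE), at an edgeR adjusted p = 0.796, and its 95% interval of -0.03 to 0.14 was the narrowest of the 9.

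P2ry12, the ADP receptor that guides microglial processes (ENSMUSG00000036353, chromosome 3, 59216272 to 59262871, minus strand), had 16.9, 18.8 and 19.6 CPM in SERTPyramid and 21.2, 18.6 and 19.1 CPM in SERTfl/fl libraries labelled female. Among libraries labelled male it had 17.4, 17.0 and 18.2 CPM in SERTPyramid and 15.7, 17.1 and 16.6 CPM in SERTfl/fl. The mean was lower in SERTPyramid under the female label and higher under the male label, and the ranges overlapped under both. Over both labels the means were 17.96 ± 1.06 CPM in SERTPyramid and 18.06 ± 2.00 CPM in SERTfl/fl (SD, n = 6), and the log2 fold change came to -0.02 ± 0.06 (SE), at an edgeR adjusted p = 0.965.

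Trem2, a lipid-sensing receptor needed for phagocytosis (ENSMUSG00000023992, chromosome 17, 48346401 to 48354147, plus strand), had 7.26, 6.36 and 6.86 CPM in SERTPyramid libraries labelled female, against 5.69, 5.70 and 5.57 CPM in SERTfl/fl. All 3 SERTPyramid values were above all 3 SERTfl/fl values there, as for 11.8% of tested genes. Among libraries labelled male Trem2 had 5.64, 6.28 and 7.15 CPM in SERTPyramid and 5.23, 6.19 and 6.05 CPM in SERTfl/fl. These ranges overlapped, with the highest library again a SERTPyramid one. The means were 6.59 ± 0.615 CPM in SERTPyramid and 5.74 ± 0.345 CPM in SERTfl/fl (SD, n = 6). The averaged log2 fold change of 0.18 ± 0.08 (SE; edgeR unadjusted p = 0.0372, adjusted p = 0.756) was the largest of the 9 and did not pass.

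Tyrobp, which encodes the adaptor DAP12 through which TREM2 signals (ENSMUSG00000030579, chromosome 7, 30413760 to 30417585, plus strand), ranged from 5.89 to 8.05 CPM in SERTPyramid and from 5.87 to 7.21 CPM in SERTfl/fl libraries. The means were 7.13 ± 0.728 CPM in SERTPyramid and 6.57 ± 0.495 CPM in SERTfl/fl (SD, n = 6). Its log2 fold change was 0.10 ± 0.08 (SE), at an edgeR adjusted p = 0.819, and both the lowest and the highest labelled-female values were SERTPyramid libraries.

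Itgam, the CD11b chain of complement receptor 3 (ENSMUSG00000030786, chromosome 7, 128062640 to 128118491, plus strand), is also found on monocytes and granulocytes. It had 36 to 80 counts per library. SERTPyramid libraries labelled female had 2.05, 2.18 and 2.24 CPM, against 2.43, 2.34 and 1.93 CPM in SERTfl/fl. SERTPyramid libraries labelled male had 3.42, 2.32 and 2.67 CPM, against 1.92, 2.08 and 2.32 CPM in SERTfl/fl. Under the male label the lowest SERTPyramid library, at 2.322 CPM, stood just above the highest SERTfl/fl library, at 2.321 CPM. The means over both labels were 2.48 ± 0.504 CPM in SERTPyramid and 2.17 ± 0.223 CPM in SERTfl/fl (SD, n = 6), and the log2 fold change came to 0.16 ± 0.13 (SE), at an edgeR adjusted p = 0.810. With 1 library left out it was 0.082 to 0.217, lowest without SERTPyramid replicate 1 labelled male.

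The remaining genes are used as labels of microglia. Tmem119, a membrane protein that separates microglia from blood-derived macrophages (ENSMUSG00000054675, chromosome 5, 113793729 to 113800516, minus strand), ranged from 6.02 to 7.69 CPM in SERTPyramid and from 5.47 to 7.82 CPM in SERTfl/fl, with a log2 fold change of 0.10 ± 0.09 (SE), at an edgeR adjusted p = 0.823. Siglech, a sialic-acid-binding receptor shared with plasmacytoid dendritic cells (ENSMUSG00000051504, chromosome 7, 55768178 to 55778925, plus strand), ranged from 5.60 to 6.79 CPM in SERTPyramid and from 5.76 to 6.80 CPM in SERTfl/fl. Its log2 fold change was -0.03 ± 0.08 (SE), at an edgeR adjusted p = 0.967. Aif1, which encodes the calcium-binding stain target IBA1 (ENSMUSG00000024397, chromosome 17, 35170991 to 35176068, minus strand), had 36 to 65 counts per library. It ranged from 1.69 to 2.78 CPM in SERTPyramid and from 1.53 to 2.55 CPM in SERTfl/fl, with a log2 fold change of 0.09 ± 0.14 (SE), at an edgeR adjusted p = 0.928. With 1 library left out that value was 0.017 to 0.151, lowest without SERTPyramid replicate 1 labelled male and highest without SERTPyramid replicate 2 labelled male. For each of these 3 markers most libraries of one genotype fell within the range of the other.

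**Figure D2:**
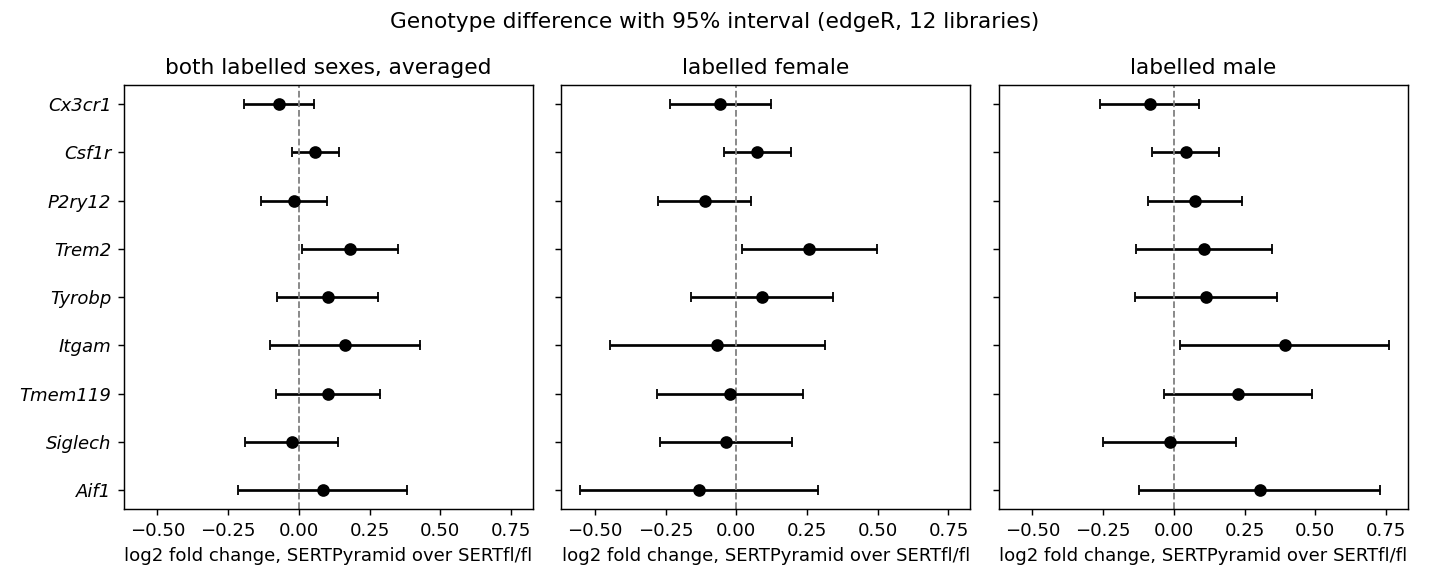
Log2 fold change of SERTPyramid over SERTfl/fl (horizontal axis) for each of the 9 genes, from the edgeR fit of 12 libraries, averaged over the labelled sexes and within each. Points are estimates, bars are 95% intervals and the dashed line marks 0. Only the intervals of Trem2 (averaged and labelled female) and Itgam (labelled male) leave out 0, before any adjustment for the number of genes tested.

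Within libraries labelled female, 0 of 9 members passed in edgeR's fit of 12 libraries, where 0 of 17631 genes passed (0%), 1417 had an unadjusted p under 0.05 (8.04%), limma voom called 0 and DESeq2 1 (0.00567%), which is no member. Trem2 was the 1 member at an unadjusted p under 0.05, on the higher side like 4.32% of genes. The median log2 fold change of the members was -0.04, with 3 of 9 above 0 against 49.9% of all genes. Trem2 had 6.83 ± 0.449 CPM in SERTPyramid and 5.65 ± 0.0724 CPM in SERTfl/fl (SD, n = 3), and the log2 fold change came to 0.26 ± 0.11 (SE; edgeR unadjusted p = 0.0362, adjusted p = 0.591). A fit of only the 6 labelled-female libraries in edgeR called 415 of 17108 genes (2.43%) and 0 of the 9 members. In that fit 3 of 9 members lay above 0 against 50.1% of genes, and 1 member, Trem2, was higher at an unadjusted p under 0.05 (13.9% of genes in either direction, 7.46% higher), with an adjusted p of 0.282 for Trem2, within 0.282 to 0.925 over its alternatives. The ranges of 3 against 3 libraries did not overlap for 18.8% of tested genes, and Trem2 was the 1 member among them, with 0 members among the 6.99% that lay below. Without SERTfl/fl replicate 1 labelled female the members' median was 0.05, and Cx3cr1 and Tmem119, which had their highest value in that library, had log2 fold changes of 0.05 and 0.09.

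Within libraries labelled male, 0 of 9 members passed in edgeR (0 of 17631 genes, 0%), the unadjusted p was under 0.05 for 558 genes (3.16%; 1.68% higher, with Itgam the 1 member), and neither limma voom nor DESeq2 called any. The members' median log2 fold change was 0.11, with 7 of 9 above 0 against 50.5% of all genes. The 6 labelled-male libraries fitted alone gave 0 calls in edgeR over 17049 genes, 0 members at an unadjusted p under 0.05 (1.86% of genes, 1.14% higher) and 7 of 9 members above 0 (51.3% of genes). Itgam had 2.80 ± 0.560 CPM in SERTPyramid and 2.11 ± 0.202 CPM in SERTfl/fl (SD, n = 3), and the log2 fold change came to 0.39 ± 0.18 (SE; edgeR unadjusted p = 0.0392, adjusted p = 0.999). Without SERTPyramid replicate 1 labelled male, the highest Itgam library, that log2 fold change was 0.23. Ranges did not overlap for 6.75% of tested genes under the male label (SERTPyramid above in 4.09% and below in 2.66%), and Itgam, above, was the 1 member among them. Without SERTfl/fl replicate 1 labelled male the members' median was 0.04.

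A change of the genotype difference with the label was tested by the interaction, the labelled-female minus the labelled-male log2 fold change. No member passed (edgeR, 0 of 17631 genes, 0%), the unadjusted p was under 0.05 for 785 genes (4.45%; 2.01% above 0) with no member among them, limma voom called 0 and DESeq2 1 (0.00567%). The difference was above 0 for 3 of 9 members and for 51% of all genes. The smallest member p was that of Itgam, with a difference of -0.46 ± 0.25 (SE; edgeR unadjusted p = 0.0857, adjusted p = 0.999). For Trem2 the difference was 0.15 ± 0.16 (SE), with a 95% interval from -0.19 to 0.49.

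Averaged over the genotypes, labelled-female over labelled-male libraries gave 0 calls in edgeR (0 of 17631 genes, 0%), 1589 genes at an unadjusted p under 0.05 (9.01%), 19 calls in DESeq2 (0.108%) and 1 in limma voom (0.00567%), with no member among the calls. P2ry12 was the 1 member at an unadjusted p under 0.05, on the higher side like 4.13% of genes, and 6 of 9 members lay above 0 against 51.3% of genes. Ranges of the labels overlapped for all 9 members and did not for 0.471% of genes. P2ry12 had 19.0 ± 1.41 CPM in labelled-female and 17.0 ± 0.816 CPM in labelled-male libraries (SD, n = 6), and the log2 fold change came to 0.16 ± 0.06 (SE; edgeR unadjusted p = 0.0099, adjusted p = 0.432, 0.274 to 0.753 over its alternatives). Without SERTfl/fl replicate 1 of both labels, the 2 libraries whose sex-linked transcripts matched their label, it was 0.11 ± 0.06 (SE). The other 8 members had log2 fold changes from -0.15 for Itgam to 0.08 for Siglech. This comparison was added after the values were seen.

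Levels of different genes can be compared only per length. Per kilobase (kb) of merged exons, the mean over 12 libraries ran from 11.7 CPM per kb for Csf1r through 10.3 for Tyrobp, 7.85 for Cx3cr1, 7.07 for P2ry12, 2.88 for Tmem119, 1.82 for Siglech, 1.39 for Aif1 and 1.25 for Trem2 to 0.463 for Itgam. Csf1r stood at the 75.9th percentile and Itgam at the 14.6th among tested genes on this scale. Neighbours in this order overlapped between libraries except P2ry12 over Tmem119, Tmem119 over Siglech, and Trem2 over Itgam. The merged exons of Trem2 span 4946 bases because 1 annotated transcript keeps introns, whereas its longest principal coding transcript has 1088 bases. Divided by the length of the longest principal coding transcript, a scale added after the values were seen, Trem2 stood at 5.67 CPM per kb, below every library's value of P2ry12 and above every library's value of Tmem119. On that scale Csf1r (14.3), Tyrobp (12.1), Cx3cr1 (7.87) and P2ry12 (7.68) still led and Itgam (0.500) was still lowest. Cx3cr1 and P2ry12 then changed places in 6 of 12 libraries.

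**Figure D3:**
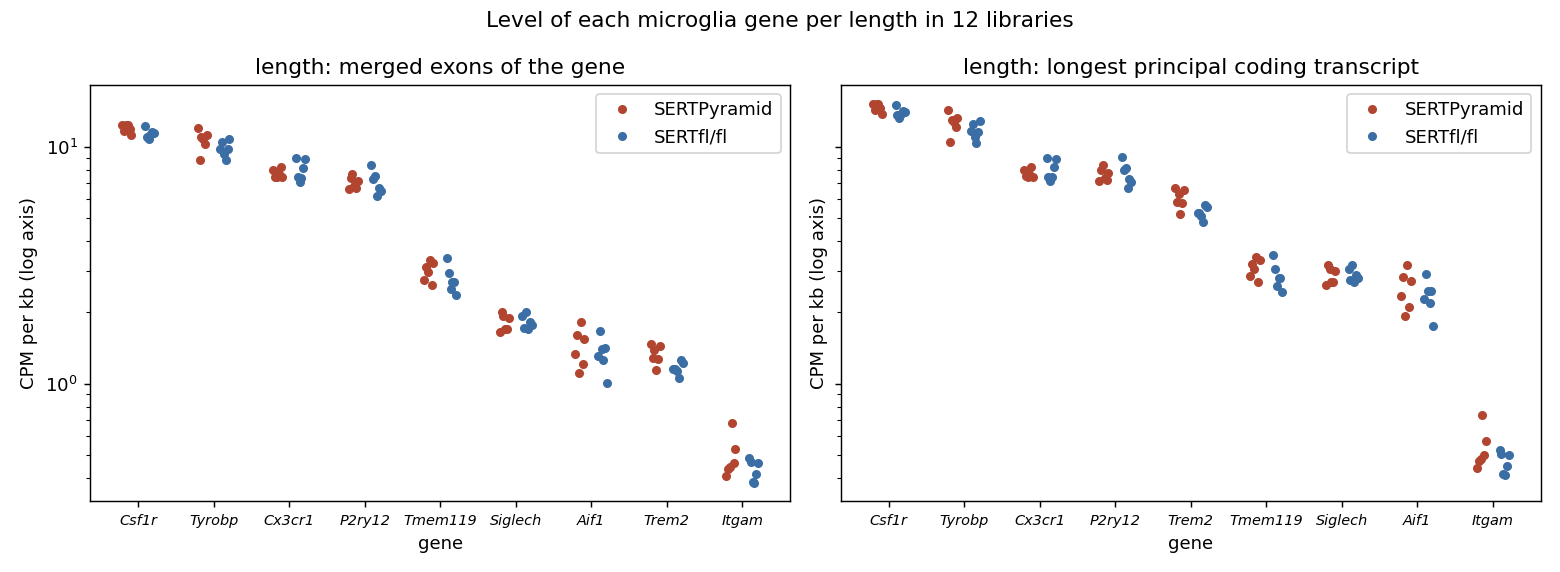
CPM per kb (log axis) of each of the 9 genes in 12 libraries, SERTPyramid (red) left of SERTfl/fl (blue), with genes ordered by mean. Length is that of merged exons on the left and of the longest principal coding transcript on the right, where Trem2 stands at a mean of 5.67 instead of 1.25 CPM per kb.

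The members differed in how far replicates of 1 group spread. For Cx3cr1 the variance within groups was 6.08 times what counting error gives (chi-square over degrees of freedom), and for Csf1r 3.78 times. The other 7 genes lay between 0.773 and 1.75 times, so that their spread was close to counting error at this depth. Over all 12 libraries the coefficient of variation was 4.69% for Csf1r and 7.55% for Cx3cr1, and 17.2% and 17.4% for the low genes Aif1 and Itgam.

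The 9 genes moved together only in part. After subtraction of group means, the 36 pairs of members had a median Pearson correlation of 0.165 over 12 libraries, from -0.502 for Cx3cr1 and Aif1 to 0.742 for P2ry12 and Siglech. Cx3cr1 and Csf1r had 0.734, and the receptor and adaptor pair Trem2 and Tyrobp 0.641. All points share their library's composition, and 12 libraries in 4 groups leave few free values, so these are descriptions. The members above their group mean numbered 3 to 7 of 9 in the SERTPyramid libraries and 1 to 8 of 9 in the SERTfl/fl libraries, with the fewest in replicate 3 labelled female and the most in replicate 2 labelled male. The 10 genes whose pattern over the 12 libraries was most like the members' mean profile were Klhl9 (correlation 0.957), Tnfaip3 (0.920), Sc5d (0.914), Ncf1 (0.892), Parp14 (0.886), Snupn (0.883), Tmem185a (0.874), Map6d1 (0.873), Ddhd1 (0.870) and Pip4k2c (0.868), out of 13485 genes with a median correlation of 0.012. Among the lists described below, the median correlation was highest, at 0.570, for the 3 ligands of the member receptors. It was 0.466 for neuronal, 0.399 for oligodendrocyte lineage and 0.356 for astrocyte markers, and 0.289 for 3 inflammatory genes. Without Sall1, it was 0.278 for other homeostatic microglia genes (-0.687 for Gpr34 to 0.718 for Ptprc) and -0.162 for microglial transcription factors.

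Genes that act with the members were described in lists, in the genotype comparison averaged over the labelled sexes, and 0 genes of any list passed in either direction. The edgeR fit of the labelled-female libraries alone, which called 2.43% of genes, did call some list genes. C4b (log2 fold change 0.62), Apoe (0.14) and the cell markers Gfap, Sox10 and Cspg4 passed there on the higher side. Tgfb2 (-0.17) and the cell marker Hbb-bs passed there on the lower side. The values that follow are those of the averaged comparison. All 15 other homeostatic microglia genes were measured, and 11 had a log2 fold change above 0 with a median of 0.02. The smallest p-values belonged to Olfml3, a secreted glycoprotein (11.2 ± 0.813 CPM in SERTPyramid and 9.97 ± 0.770 CPM in SERTfl/fl, SD, n = 6), and Rgs10, a regulator of G-protein signalling (16.8 ± 0.854 CPM in SERTPyramid and 15.5 ± 1.22 CPM in SERTfl/fl). Among 7 microglial transcription factors, 3 lay above 0, the median was -0.0083, and Spi1 had 0.11 ± 0.09 and Runx1 -0.10 ± 0.17 (log2 fold change, SE). Sall1 stands in both of these lists.

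The ligands of the member receptors were all measured. Cx3cl1, the neuronal ligand of CX3CR1, had 389 ± 18.9 CPM in SERTPyramid and 387 ± 19.3 CPM in SERTfl/fl (SD, n = 6), and the log2 fold change came to -0.0082 ± 0.04 (SE). Csf1 had 16.2 ± 0.530 CPM in SERTPyramid and 15.01 ± 1.07 CPM in SERTfl/fl (SD, n = 6), with 0.10 ± 0.06 (log2 fold change, SE; edgeR adjusted p = 0.764), and Il34, the other ligand of CSF1R, had 19.0 CPM in SERTPyramid and 18.7 CPM in SERTfl/fl. Of 12 genes of TREM2, DAP12 and CSF1R signalling 11 passed the filter, 6 lay above 0 and the median was 0.04. Plcg2, the phospholipase downstream of TREM2, had 4.76 ± 0.155 CPM in SERTPyramid and 4.09 ± 0.358 CPM in SERTfl/fl (SD, n = 6), with 0.21 ± 0.08 (log2 fold change, SE; edgeR adjusted p = 0.756), and the adaptor gene Grb2 had -0.07 ± 0.03 (log2 fold change, SE).

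Of 8 complement genes 6 lay above 0, with a median log2 fold change of 0.09. Their summed level was 82.7 to 91.8 CPM in SERTPyramid and 78.2 to 81.5 CPM in SERTfl/fl libraries, and these ranges did not overlap. The summed ranges of every other list did overlap. For single tested genes the share without overlap was 0.261%, and a share for sums was not computed. Most of the sum came from C1qc, C1qa and C1qb (28.8, 22.8 and 20.5 CPM in SERTPyramid) and C4b. Itgb2 and C5ar1 had lower means in SERTPyramid. C4b, a complement component with a close paralog that can share its reads, had 9.59 ± 1.59 CPM in SERTPyramid and 6.80 ± 1.08 CPM in SERTfl/fl (SD, n = 6), and the log2 fold change came to 0.47 ± 0.11 (SE; edgeR unadjusted p = 0.00066, adjusted p = 0.756). C1qa, a chain of the complement starter C1q made mainly by microglia, had 0.09 ± 0.05 (log2 fold change, SE). Itgb2, the partner chain of Itgam in complement receptor 3, had 2.29 CPM in SERTPyramid and 2.37 CPM in SERTfl/fl.

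Of 15 genes of activated and developmental microglia 14 passed the filter, 9 lay above 0 and the median log2 fold change was 0.07. Cd68, a lysosomal protein of phagocytes, had 9.07 ± 0.838 CPM in SERTPyramid and 7.57 ± 0.892 CPM in SERTfl/fl (SD, n = 6), and the log2 fold change came to 0.24 ± 0.08 (SE), at an edgeR adjusted p = 0.756. Apoe, which astrocytes also express strongly, had 0.10 ± 0.03 (log2 fold change, SE). Of 12 inflammatory cytokine and chemokine genes 3 passed the filter, and Nos2 had 0.25 ± 0.14 and Il18 0.03 ± 0.07 (log2 fold change, SE). Il1b and Il6 had 0 to 3 counts per library in both genotypes. Of 10 genes of TGF-beta signals, on which microglial identity depends, 2 lay above 0 with a median of -0.02. Tgfb2 had 71.8 ± 3.76 CPM in SERTPyramid and 77.9 ± 3.06 CPM in SERTfl/fl (SD, n = 6), and the log2 fold change came to -0.13 ± 0.04 (SE), at an edgeR adjusted p = 0.756, and Nrros 0.14 ± 0.09 (SE).

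**Figure D4:**
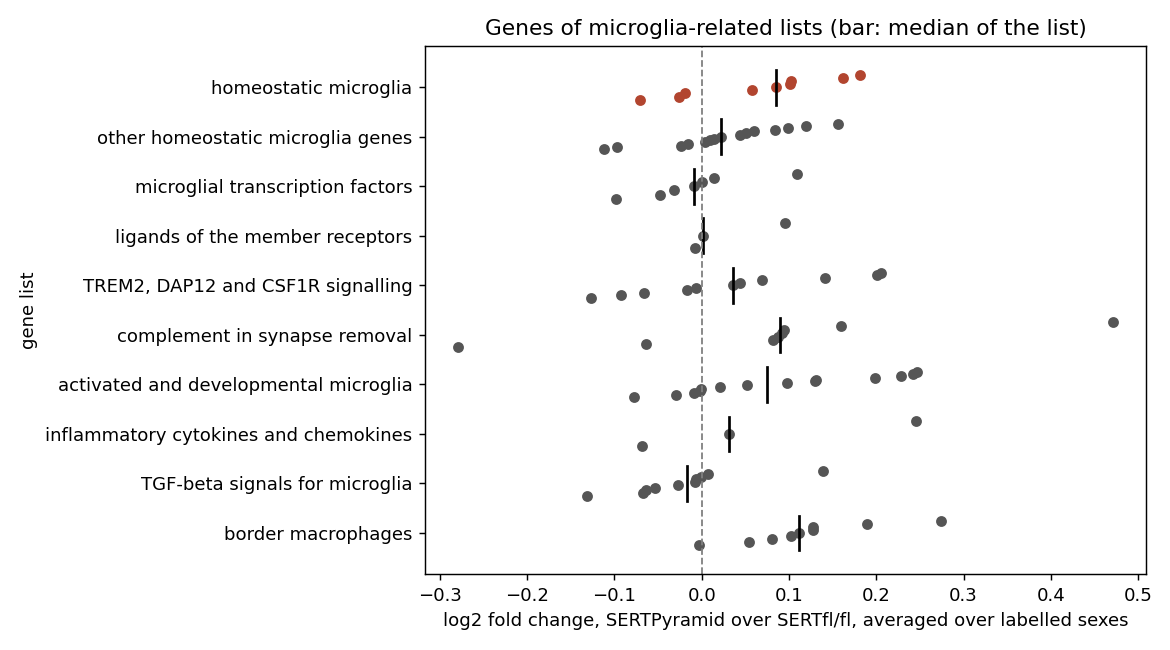
Log2 fold change of SERTPyramid over SERTfl/fl, averaged over the labelled sexes (horizontal axis), for each measured gene of the 9 members (red) and of related lists (grey). Bars are list medians and the dashed line marks 0. The members' median is 0.085, and the gene farthest right is C4b at 0.47.

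Markers of other cells were measured because several members are shared with them. Border macrophages, which also express Csf1r and Cx3cr1, had 9 of 10 markers past the filter, 8 of those 9 above 0 and a median log2 fold change of 0.11. Their summed level was 54.7 to 65.1 CPM in SERTPyramid and 50.5 to 60.2 CPM in SERTfl/fl libraries, with Stab1 at 0.13 ± 0.06 and Pf4 at 0.13 ± 0.14 (log2 fold change, SE). The part of these cells in the members' values was not tested. None of the 8 lymphocyte markers passed the filter, and their sum was at most 1.11 CPM in SERTPyramid and 1.09 CPM in SERTfl/fl. None of the 10 blood monocyte and neutrophil markers passed either. Their sum was 0.559 to 1.55 CPM in 5 SERTPyramid libraries and 0.373 to 1.17 CPM in SERTfl/fl, and 11.8 CPM in SERTPyramid replicate 2 labelled female. Itgam, which such cells express, was 2.18 CPM (46 counts) in that library, between the other 2 libraries of its group. What blood cells add to the Itgam values was not tested.

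Among the other cell types, choroid plexus markers varied most, with sums of 28.2 to 2488 CPM in SERTPyramid and 968 to 1832 CPM in SERTfl/fl libraries, and 0 of 8 above 0 (median log2 fold change -0.23). The extremes were SERTPyramid replicate 3 labelled female and SERTPyramid replicate 1 labelled male. In the first of these the 9 members summed to 155.8 CPM and in the second to 155.7 CPM. Single members differed between these libraries, with 6.86 against 5.64 CPM for Trem2 and 2.24 against 3.42 CPM for Itgam. The part of choroid plexus tissue in the members' values was not tested. Folr1 had -0.30 ± 0.53 and Kcnj13 -0.34 ± 0.46 (log2 fold change, SE). Median log2 fold changes were -0.12 over 5 red blood cell markers, -0.09 over 6 endothelial, 0.02 over 6 astrocyte, 0.11 over 6 oligodendrocyte lineage and -0.01 over 8 neuronal markers. The smallest p-values in these lists belonged to Hbb-bt, which shares sequence with other globin genes, and Alas2 (-0.21 ± 0.09 and -0.24 ± 0.14), Cdh5 and Slco1a4 (-0.09 ± 0.06 and -0.18 ± 0.11), Gfap and Aldoc (0.14 ± 0.03 and 0.04 ± 0.03), Sox10 and Cspg4 (0.12 ± 0.04 and 0.11 ± 0.05), and Prox1 and Neurod6 (-0.11 ± 0.05 and -0.06 ± 0.03), as log2 fold change with SE.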

How the data were processed

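Total RNA (250 ng, isolated with Trizol and cleaned on a column) went into the TruSeq RNA v2 kit, whose reads carry no strand, per the labels' protocols. The authors deposited raw read counts per Ensembl gene, and the build is mm10 per the submitters' processing notes. Aligner, annotation and counting settings: not given in the sources used here. The table has 52634 genes, 0 entries that name no gene and 0 unmapped columns. The members and lists were chosen with earlier results of these data known.

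Libraries were grouped by labelled genotype and labelled sex. CPM uses library totals. Genes were kept by filterByExpr, scaled by TMM and tested over 12 libraries in 4 groups with edgeR 4.0.16 (robust quasi-likelihood F test, R 4.3.3), with Benjamini-Hochberg adjustment over all 17631 genes and a threshold of 0.05. The SE was derived from F as the size of the log2 fold change divided by its root. Members are reported in every comparison, lists by the 2 genes with the smallest p in the averaged comparison, and alike genes by correlation of log2 CPM (prior count 2, group means removed, mean CPM of at least 1, predicted models passed over). Il34, Itgb2, Il1b, Il6, C1qb, C1qc, C5ar1, Hbb-bs, Gpr34 and Ptprc were named after their values were seen. Coordinates are from GENCODE M21 (GRCm38), lengths too. The alternatives were no low-count filter, RLE scaling, at least 1 CPM in 6 libraries, DESeq2 1.42.0, limma voom 3.58.1 with quality weights, a replicate block, the compared groups alone, each library left out, SERTfl/fl replicate 1 of both labels left out, 1 surrogate variable (sva 3.50.0), Y-linked expression as a covariate and an adjusted p of 0.1. Replicate pairs had a chi-square per degree of freedom of 2.52 to 13.8, more than sampling noise gives. On simulated counts for the averaged comparison (17455 genes), 60% of genes changed 1.2-fold, 92% at 1.5-fold and 100% at 2-fold were recovered, with 11 false calls. The changed genes were drawn only from those above a minimum expected count, near which Aif1 and Itgam lie. The rates therefore do not describe genes at the low level of Aif1 and Itgam. The simulated counts also held 50 changed genes at each of 1.2-, 1.5-, 2- and 4-fold. In the measured averaged comparison edgeR called 0 of 17631 genes, with a smallest adjusted p of 0.756. The Benjamini-Hochberg cutoff depends on how many genes change, so these rates cannot say how often such changes in any member would have passed.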

Additional observations from a re-analysis of the deposited data

Results flagged for a closer look

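Of 54 groups of 6 libraries checked for a library far from the others, 3 were picked out by Dixon's test, where chance picks out about 1 in 20. Summed markers of blood monocytes and neutrophils reached 11.8 CPM in SERTPyramid replicate 2 labelled female, and the next SERTPyramid library had 1.55 CPM. Summed endothelial markers reached 218.2 CPM in SERTfl/fl replicate 3 labelled male, and summed neuronal markers reached 2628 CPM in SERTfl/fl replicate 1 labelled female. None of the 9 microglia genes had such a library. Their summed level was 150.3, 151.1 and 163.0 CPM in these 3 libraries.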

How the results depend on the processing

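Over 23 alternative settings the members gave 963 values, of which 904 kept their direction and side of the threshold, 59 changed direction and 0 passed an adjusted p of 0.05 (smallest 0.274). No value whose direction changed was larger than 0.085 on the log2 scale before. Beside 0 calls each, no low-count filter gave 66 calls averaged over the labels, 103 for labelled female, 5 for labelled male, 14 for the interaction and 194 for labelled female over male. DESeq2 gave 1, 1 and 19 for labelled female, interaction and label, the labelled-female groups alone gave 415, and limma voom, the replicate block and an adjusted p of 0.1 gave 1 each for the label. Leaving out 1 library gave 0 to 144 calls averaged (144 without SERTPyramid replicate 2 labelled male), 0 to 2 for labelled female and 0 to 73 for the label (73 without SERTPyramid replicate 1 labelled male), and without SERTfl/fl replicate 1 of both labels 13 for the label. The causes were not tested. The members' median lay at 0.046 to 0.113 (averaged), -0.119 to 0.052 (labelled female), 0.043 to 0.138 (labelled male), -0.115 to 0.0044 (interaction) and 0.0059 to 0.048 (label) with 1 library left out. Without SERTfl/fl replicate 1 of both labels the median was 0.052 for labelled female and 0.042 for labelled male, and with the Y-linked covariate 0.025 for labelled female and 0.105 for the label.

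Directions changed with 1 library left out within these ranges of log2 fold change. Averaged, P2ry12 had -0.045 to 0.018 and Siglech -0.053 to 0.022. Averaged values that kept their direction were -0.101 to -0.016 for Cx3cr1, 0.043 to 0.088 for Csf1r, 0.052 to 0.160 for Tmem119, 0.057 to 0.159 for Tyrobp and 0.142 to 0.225 for Trem2. For labelled female, Cx3cr1 had -0.119 to 0.052, Tmem119 -0.123 to 0.093, Itgam -0.16 to 0.0011 and Siglech -0.095 to 0.056. For labelled male, Siglech had -0.052 to 0.015. For the interaction, Cx3cr1 had -0.041 to 0.136, Csf1r -0.017 to 0.089, Tyrobp -0.115 to 0.091 and Siglech -0.082 to 0.068. For the label, Csf1r had -0.016 to 0.030, Trem2 -0.014 to 0.067, Tyrobp -0.049 to 0.054 and Aif1 -0.029 to 0.109. Without SERTfl/fl replicate 1 of both labels, labelled female gave Cx3cr1 0.052, Tmem119 0.093 and Itgam 0.0012, the interaction Tyrobp 0.045 and Siglech 0.021, and the label Csf1r -0.022 and Trem2 -0.011. With the Y-linked covariate, labelled female gave Cx3cr1 0.035 and Tmem119 0.025, the interaction Tyrobp 0.024 and Siglech 0.011, and the label Cx3cr1 0.108, Tyrobp 0.055 and Aif1 -0.040. With 1 surrogate variable Aif1 averaged was -0.013, Cx3cr1 for labelled female 0.023, and for the label Cx3cr1 0.021, Tyrobp 0.020 and Aif1 -0.073. With limma voom Tmem119 for labelled female was 0.022, Siglech for the interaction 0.0055 and Trem2 for the label -0.0012.

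Same-numbered libraries of the 2 genotypes showed little common deviation (correlations of -0.142 to 0.072), and differently numbered ones reached 0.194. With deviations from means of only 3 libraries, these values cannot decide whether the numbers pair libraries. The replicate block left the members' medians at 0.088 averaged, -0.038 for labelled female and 0.107 for labelled male and changed no other call. At 36 to 80 counts for Itgam and 36 to 65 for Aif1, the 95% interval of the averaged fold change was 0.931 to 1.345 for Itgam and 0.862 to 1.305 for Aif1, the 2 widest of the 9.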
